A study of Homo sapiens with 18 samples.

Results

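The genes that encode receptors for glutamate and GABA were examined in a human neuroblastoma line with and without extra ABCC1. Members were the protein-coding Ensembl genes whose symbols name subunits of the AMPA (GRIA), kainate (GRIK), NMDA (GRIN), delta (GRID) and metabotropic (GRM) glutamate receptors and of the GABA-A (GABR) and GABA-B (GABBR) receptors, with GRINA, which encodes no receptor subunit, left out. This rule gave 46 members of 57905 gene IDs, 26 of them for glutamate and 20 for GABA. GABRQ, the gene of the theta subunit, was not analysed here.

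Glutamate is the main excitatory transmitter of the brain and GABA the main inhibitory one. AMPA, kainate and NMDA receptors are cation channels built from 4 subunits, and GABA-A receptors are chloride channels built from 5 subunits, so which subunit genes a cell transcribes limits which channels it can build. Metabotropic glutamate receptors and GABA-B receptors act through G proteins instead. Neuroblastoma arises from the sympathoadrenal lineage of the neural crest, not from cortical neurons.

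RNA was sequenced from BE(2)-m17 cells, an established human neuroblastoma line, in 3 experiments called RNA1, RNA2 and RNA3. After the first experiment, the paper describes one with cryopreserved cells and then one with newly transfected cells. Taken in that order, RNA2 came from the former and RNA3 from the latter, so RNA1 and RNA2 may share a pair of lines. Every library came from cells that carry the APP vector pSBbi-Hyg-APP, which encodes the precursor of the Abeta peptide. The empty vector control cells (Puro) also carry pSBbi-Pur, and the ABCC1-overexpressing cells (ABCC1) carry pSBbi-Pur-ABCC1(WT), a codon-optimized ABCC1, an ATP-driven export pump. Each experiment has 3 libraries of each line, 18 in all, and the comparison asks which receptor genes differ in RNA level when ABCC1 is overexpressed. Both vectors insert through the Sleeping Beauty transposase and the lines were selected with antibiotics, so within an experiment ABCC1 and any other difference between its pair of lines cannot be told apart. The study's methods describe weekly platings, and the p-values below measure the spread between these libraries.

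Per library, 27433393 to 57937653 read pairs were assigned to features in RNA1, 19577853 to 30996228 in RNA2 and 8866994 to 13332413 in RNA3. Counts of the transgenic ABCC1 matched the labels in all 18 libraries: they lay between 51035 and 594404 in the ABCC1 libraries and between 0 and 15 in the Puro libraries. The experiments differ in what silent genes show. For this, 350 olfactory receptor genes were taken as silent. Their pooled level, summed counts over summed exon length, was used as a measure of stray reads. It was 0.00510 ± 0.000431 CPM per kilobase of exon in the Puro cells of RNA1, 0.578 ± 0.0872 in RNA2 and 1.57 ± 0.0878 in RNA3 (SD, n = 3). It was lower in the ABCC1 cells without overlap in each experiment, at 0.00411 in RNA1, 0.303 ± 0.148 in RNA2 and 1.25 in RNA3, and ABCC1 replicate 1 of RNA2 stood apart at 0.140. CPM is the count of a gene scaled to a fixed library size after TMM normalization, and levels of different genes are compared only per kilobase of exon. The labelled cell type was checked in the Puro cells of RNA1: CHGA (2250 CPM per kilobase), MYCN (1109), PHOX2A (243), HAND2 (233), GATA3 (167) and DBH (139) were high and TH stood at 16.7. Glial GFAP and MOG were at or near 0, and the leukocyte and cortical neuron marker lists summed to at most 0.234 and 0.735 in any of these libraries.

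In the Puro cells of RNA1, transcript levels ranged widely between receptor genes. The AMPA subunit GRIA4 stood at 13.8 CPM per kilobase, the kainate subunits GRIK2 at 10.4 and GRIK3 at 9.77, and GRIA2, the AMPA subunit whose edited form keeps calcium out of the channel, at 3.60. The order continued with the delta receptor GRID1 at 2.79, the kainate subunit GRIK5 at 2.25, GABRA4 (GABA-A alpha-4) at 2.17, the obligatory NMDA subunit GRIN1 at 2.02, the GABA-B subunit GABBR1 at 1.21, the metabotropic receptor GRM8 at 0.611 and GABRA5 (GABA-A alpha-5) at 0.593. The ranges over the 3 libraries overlapped between GRIK2 and GRIK3, between GRIK5 and GABRA4, between GABRA4 and GRIN1, and between GRM8 and GABRA5, so these neighbours cannot be put in order. They did not overlap at the other steps among the genes named here.

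In all, 10 members reached at least 1 CPM per kilobase, 17 lay between 0.1 and 1, and 19 lay below 0.1. GABRA6 and GABRE were among the members with no count in any of the 6 RNA1 libraries, and GRM5 had 1 count in 1 ABCC1 library. GABRA6 is known for cerebellar granule cells. With 3 counts as the most that an observed 0 allows, GABRA6 and GABRE were not detectable at this depth.

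**Figure D1:**
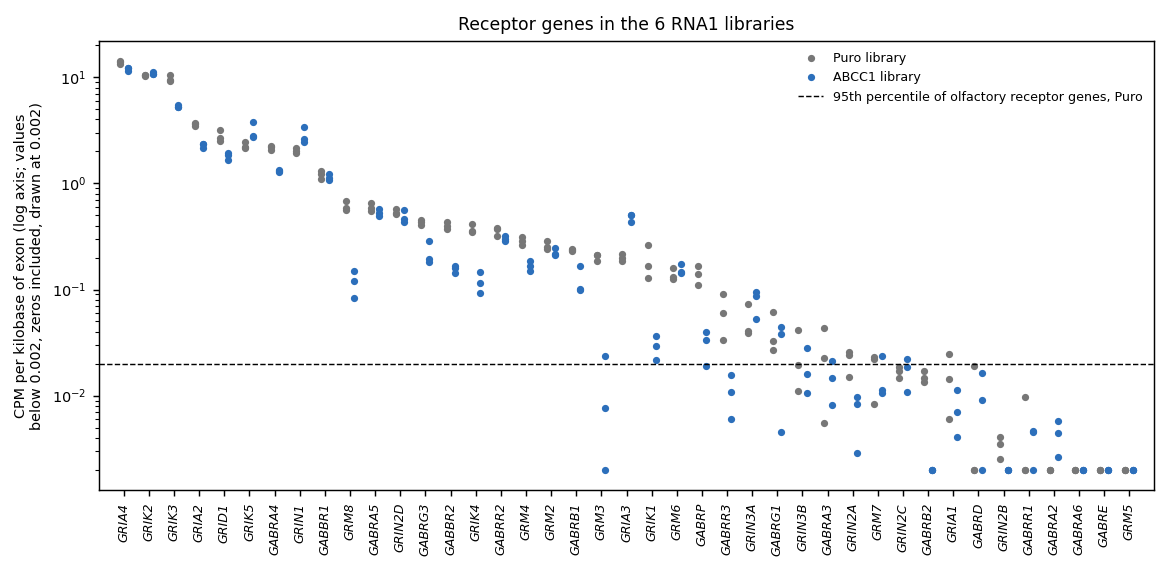
CPM per kilobase of exon (log axis) of 41 receptor genes in each of the 3 Puro (grey) and 3 ABCC1 (blue) libraries of RNA1, in order of the Puro mean, with the 95th percentile of the olfactory receptor genes as a dashed line. GRIA4, GRIK2 and GRIK3 stand near or above 10 in the Puro cells, and 30 of the genes shown have a mean above the line.

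Against the 95th percentile of the olfactory receptor genes, 34 of 46 members were above background in the Puro cells of RNA1, 15 in RNA2 and 9 in RNA3. That limit was 0.0200 CPM per kilobase in RNA1, 1.39 in RNA2 and 3.65 in RNA3, so in RNA2 and RNA3 most members lay within the range of silent genes. Among all protein-coding genes, 77.5%, 58.5% and 45.2% passed the same limits. A total of 9 members passed in all 6 groups, among them GRIA4, GRIK2, GRIK3, GRIK5, GRIN1, GRID1, GABBR1 and GABRR2. The last of these, a rho subunit of GABA-A receptors, passed in RNA3 at 3.82 in the Puro cells, just over the limit. For the members below the limit, values in RNA2 and RNA3 cannot be told apart from stray reads: GRIA1, which encodes a major AMPA subunit of forebrain neurons, had 2 to 6 counts in the RNA1 Puro libraries (0.0151 CPM per kilobase) but 149 to 172 in the shallower RNA3 Puro libraries (2.02).

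**Figure D2:**
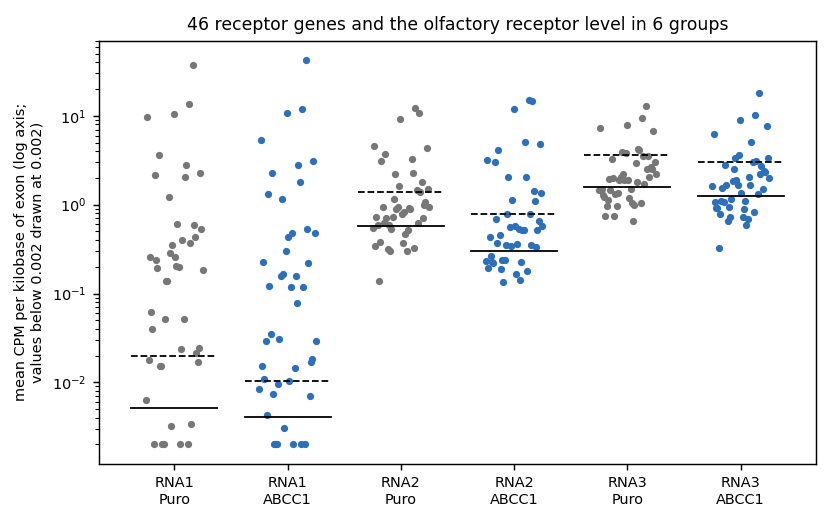
Mean CPM per kilobase of exon (log axis) of the 46 members in each of the 6 groups, one point a gene, with the pooled olfactory receptor level (solid bar) and the 95th percentile of the olfactory receptor genes (dashed bar). In the Puro cells 34, 15 and 9 members lie above the dashed bar in RNA1, RNA2 and RNA3.

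The share of each subunit in the RNA level of its receptor class was described next. Protein and the assembly of channels were not measured. In the Puro cells of RNA1, GRIA4 made up 78.3% ± 0.794 and GRIA2 20.5% ± 0.741 of the AMPA subunit level (SD, n = 3). GRIK2 held 45.2% ± 1.22 and GRIK3 42.5% ± 1.40 of the kainate level, and the subunits GRIK5 and GRIK4, which need a partner of the GRIK1 to GRIK3 group to form a channel, held 9.81% ± 0.330 and 1.63% ± 0.186. GRIN1 made up 75.6% ± 1.09 of the NMDA level, with GRIN2D as the leading glutamate-binding partner at 20.1% ± 0.0881. GRIN2A and GRIN2B, the partners that prevail in the adult forebrain, held 0.807% ± 0.209 and 0.127% ± 0.0358.

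These shares moved with ABCC1 in RNA1. GRIK3 fell from 42.5% to 27.4% ± 0.975 of the kainate level while GRIK2 went to 55.9% ± 1.91 and GRIK5 to 15.97% ± 2.85. Within the AMPA class, GRIA2 went from 20.5% to 15.5% ± 0.203 and GRIA3 from 1.14% ± 0.0644 to 3.26% ± 0.189. GRIN1 reached 82.1% ± 1.61 of the NMDA level, and GABBR1 went from 75.1% ± 0.356 to 88.0% ± 1.43 of the GABA-B level. In the metabotropic class GRM8 went from 34.3% ± 2.51 to 10.4% ± 2.60. For each share named in this paragraph the 3 libraries of a line did not overlap those of the other line. A share moves when any subunit of its class does, and shares were not tested. In RNA2 and RNA3, where the olfactory receptor level was higher, GRIN2B for example held 6.94% ± 0.803 of the NMDA level in the RNA2 Puro cells. The part of stray reads in those shares was not tested, and they are not set beside those of RNA1.

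**Figure D3:**
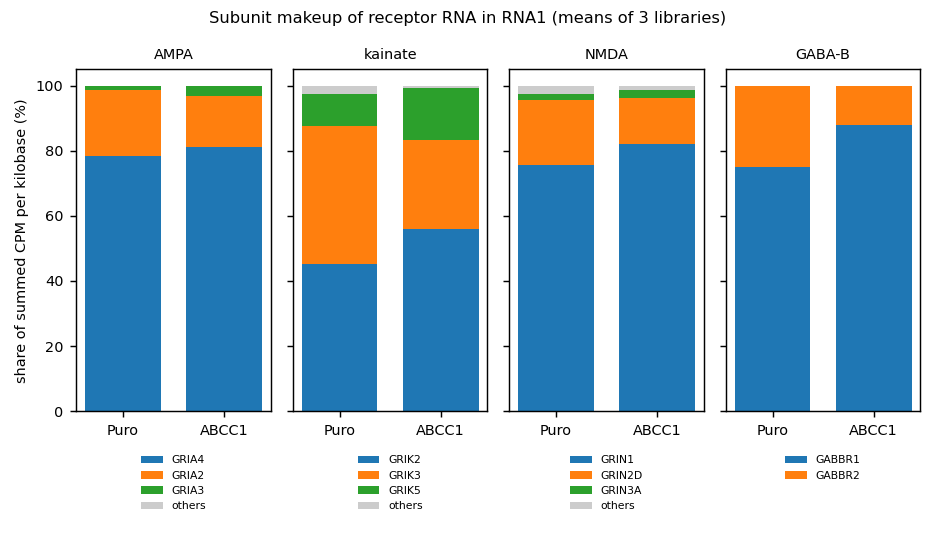
Stacked bars from 0 to 100% of the share of each subunit in the summed CPM per kilobase of its class, for 4 receptor classes in RNA1, means of 3 libraries for Puro and ABCC1, with subunits under 2% in both lines joined as others. GRIK3 shrinks from 42.5% to 27.4% of the kainate class and GABBR1 grows from 75.1% to 88.0% of the GABA-B class.

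The promoters of 4 kainate subunits are shown because these genes belong to the same receptor class and moved in different directions: in RNA1 the levels of GRIK3 and GRIK4 fell, that of GRIK5 rose and that of GRIK2 did not pass the test. Each is the RefSeq sequence from 250 bases before to 50 bases after the gene's start on GRCh38.p14, written along the gene's strand, with the GC box GGGCGG or its complement CCGCCC, a letter pattern bound by Sp1-type factors, in capitals. They lie at chr6:101393458-101393757 (plus strand, GRIK2), chr1:37034466-37034765 (minus strand, GRIK3), chr11:120511498-120511797 (plus strand, GRIK4) and chr19:42070157-42070456 (minus strand, GRIK5).
GRIK2 promoter: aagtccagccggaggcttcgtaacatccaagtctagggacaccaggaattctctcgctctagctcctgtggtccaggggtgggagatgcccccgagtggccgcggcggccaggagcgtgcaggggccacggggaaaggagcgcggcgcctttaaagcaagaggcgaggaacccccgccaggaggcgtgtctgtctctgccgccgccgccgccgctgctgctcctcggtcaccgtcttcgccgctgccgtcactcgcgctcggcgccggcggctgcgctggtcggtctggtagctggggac
GRIK3 promoter: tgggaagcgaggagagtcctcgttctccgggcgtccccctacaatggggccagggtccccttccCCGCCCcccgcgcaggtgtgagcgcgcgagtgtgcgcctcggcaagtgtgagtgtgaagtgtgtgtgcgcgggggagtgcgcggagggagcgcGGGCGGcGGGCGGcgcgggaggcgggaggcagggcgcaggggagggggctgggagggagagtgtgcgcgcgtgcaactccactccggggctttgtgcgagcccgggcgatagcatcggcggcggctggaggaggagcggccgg
GRIK4 promoter: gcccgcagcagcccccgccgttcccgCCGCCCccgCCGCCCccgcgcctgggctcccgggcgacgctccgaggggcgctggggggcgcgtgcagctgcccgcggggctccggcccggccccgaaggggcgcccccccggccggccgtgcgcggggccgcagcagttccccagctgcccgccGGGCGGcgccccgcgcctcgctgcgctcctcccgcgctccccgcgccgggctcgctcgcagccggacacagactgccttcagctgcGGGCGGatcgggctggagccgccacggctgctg
GRIK5 promoter: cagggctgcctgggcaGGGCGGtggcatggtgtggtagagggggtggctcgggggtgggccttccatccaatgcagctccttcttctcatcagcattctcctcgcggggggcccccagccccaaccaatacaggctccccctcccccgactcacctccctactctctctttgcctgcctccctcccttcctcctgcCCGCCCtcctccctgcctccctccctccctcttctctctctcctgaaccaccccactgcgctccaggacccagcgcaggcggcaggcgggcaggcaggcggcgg
The GRIK2 window held no GC box, that of GRIK3 held 3, that of GRIK4 held 4 and that of GRIK5 held 2, beside 33, 37, 49 and 12 CpG dinucleotides. A promoter was found for 33 of the 46 members, and 16 of those (48.48%) held a GC box on either strand, beside 44.95% of all 35116 promoters. The median number of CpG dinucleotides was 23.5 in the 20 matched promoters of members with enough counts to test in RNA1 and 13 in the 13 others, beside 14 in all promoters. A letter match is a description and shows no binding.

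RNA1 had the smallest spread between libraries, a biological coefficient of variation of 5.67% against 35.3% in RNA2 and 19.7% in RNA3. The lines were compared gene by gene with edgeR's quasi-likelihood test over all genes, with p adjusted by the Benjamini-Hochberg method, and log2FC is the fitted log2 of ABCC1 over Puro. In RNA1, 28 of 46 members had enough counts to be tested and 20 of those were called at an adjusted p of at most 0.05, 5 higher and 15 lower in the ABCC1 cells. Across all genes tested 37.6% were called, 17.9% higher and 19.7% lower. The median log2FC of the 28 members was -0.42, beside 0.007 over all genes. The filter bears on this count: 4 of the 28 had at least 10 counts in every library of the Puro cells only and 1 in those of the ABCC1 cells only, so for these a difference was built in. The 18 members not tested had at most 18 counts in any RNA1 library. The 8 tested and not called had log2FC from -0.23 to 0.53 and adjusted p from 0.237 to 0.547. In bulk RNA, fewer cells that transcribe a gene and less RNA per cell cannot be told apart.

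Markers of cell state moved in the same comparison. Of 10 noradrenergic neuroblastoma markers, 8 were called in RNA1, 2 higher and 6 lower, beside 37.6% of all genes, and none was at 0; their summed level was 4370 to 4728 CPM per kilobase in the Puro libraries and 3771 to 4299 in the ABCC1 libraries. Of 6 mesenchymal markers, 3 were called, 1 higher and 2 lower, with sums of 48.2 to 49.8 and 45.0 to 48.4. Of 5 leukocyte markers the only one tested, CD14, was lower, and the list summed to 0.183 to 0.234 and 0.0755 to 0.0913. For 5 epithelial markers, 1 of 3 tested was called, higher, with sums of 1.49 to 2.16 and 2.14 to 2.43. For 6 astrocyte and oligodendrocyte markers, 1 of 3 tested was called, MBP, lower, with sums of 0.188 to 0.232 and 0.213 to 0.303, and neither of the 2 cortical neuron markers tested was. In RNA3 3 of 10 noradrenergic markers were called, 1 higher and 2 lower, and 2 of 4 leukocyte markers, both lower, beside 2.8% of all genes. In RNA2 edgeR called 0 of the genes of these lists, with 5 noradrenergic markers at an unadjusted p under 0.05 and at most 2 in each other list. The part of these shifts in the receptor results was not tested.

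Among the AMPA subunits, GRIA2 and GRIA4 were lower and GRIA3 was higher in the ABCC1 cells of RNA1. GRIA4 stood at 139, 134 and 143 CPM in the Puro libraries and at 122, 122.6 and 116 in the ABCC1 libraries, without overlap but close (log2FC -0.20 ± 0.04 SE, adjusted p = 0.00316). GRIA2 stood at 31.0, 32.7 and 32.9 CPM against 21.0, 20.8 and 19.3 (log2FC -0.66 ± 0.06, adjusted p = 1.08e-05). All 3 ABCC1 libraries were thus below all Puro libraries for both genes. GRIA3, a further AMPA subunit and a low one, had 56, 37 and 47 counts against 197, 112 and 172 (log2FC 1.26 ± 0.14, adjusted p = 4.94e-05). In RNA2 and RNA3 edgeR called none of the 4 AMPA subunits, and none had an unadjusted p under 0.05, with log2FC of GRIA4 at 0.27 ± 0.18 and 0.12 ± 0.18, of GRIA2 at 0.15 ± 0.15 and -0.26 ± 0.17 and of GRIA3 at 0.19 ± 0.36 and 0.07 ± 0.25. The RNA1 call of GRIA4 was lost with the background, the olfactory receptor level of each library, as a covariate. It was also lost with the spread shared over the 18 libraries, whereas the calls of GRIA2 and GRIA3 were kept under both. Over all 13 alternatives the log2FC of GRIA4 lay between -0.27 and -0.10. The background separates the lines without overlap in each experiment. As a covariate it takes up part of their difference, so here and below a loss of calls with it is partly built in.

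All 5 kainate subunits could be tested in RNA1 and 4 were called, beside 37.6% of all genes. Among these calls, GRIK1 passed the filter on low counts through the Puro cells only. GRIK3 stood at 96.0, 106 and 94.1 CPM in the Puro libraries and at 53.5, 55.0 and 52.5 in the ABCC1 libraries of RNA1. Every ABCC1 library was far below every Puro library (log2FC -0.88 ± 0.05, adjusted p = 7.44e-07). It also lay lower without overlap in RNA2, at 44.6, 49.9 and 44.5 CPM against 36.2, 29.4 and 31.4, where the test was not passed (log2FC -0.52 ± 0.16, adjusted p = 0.0747). In RNA3 the libraries stood at 64.3, 79.4 and 76.0 against 58.2, 65.1 and 64.8 and overlapped (log2FC -0.23 ± 0.17, adjusted p = 0.559).

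GRIK4 was the only member called lower in more than 1 experiment. Its levels were 2.64, 2.61 and 3.07 CPM against 1.08, 0.681 and 0.861 in RNA1, and 13.1, 10.2 and 9.31 against 5.61, 5.62 and 6.34 in RNA2. In both experiments every ABCC1 library lay below every Puro library. It was called in RNA1 (log2FC -1.62 ± 0.17, adjusted p = 4.01e-05) and in RNA2 (log2FC -0.89 ± 0.23, adjusted p = 0.0484), and in RNA3 its log2FC was -0.20 ± 0.16 (adjusted p = 0.603). The RNA2 call was lost with RLE factors, with the background as a covariate and when any library but ABCC1 replicate 3 was left out, while the log2FC stayed between -1.01 and -0.71 under all 13 alternatives. In RNA2 its level was near background, 1.46 CPM per kilobase against the limit of 1.39 in the Puro cells and 0.789 against 0.787 in the ABCC1 cells, where the pooled olfactory receptor level was lower in the ABCC1 cells as well. GRIK1 fell from 31, 15 and 35 counts to 7, 3 and 9 in RNA1 (log2FC -2.59 ± 0.36, adjusted p = 0.000278). It passed the filter on low counts through the Puro cells only, so a difference was built in. GRIK5 rose in RNA1 (log2FC 0.48 ± 0.13, adjusted p = 0.0157), with 10.7, 12.2 and 11 CPM against 13.9, 13.7 and 19.1, and the last of these libraries set the upper end. That call was lost when Puro replicate 1 or Puro replicate 3 was left out and with the background as a covariate, with adjusted p up to 0.286. Over all 13 alternatives the log2FC of GRIK5 in RNA1 lay between 0.30 and 0.58. GRIK2 was not called in any single experiment, with log2FC of 0.06 ± 0.04, 0.37 ± 0.17 and 0.20 ± 0.17.

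GRIN1, without which no NMDA receptor forms, was the only member called higher in more than 1 experiment. Its CPM were 14.3, 12.99 and 13.5 in the Puro libraries and 16.6, 17.6 and 22.6 in the ABCC1 libraries of RNA1 (log2FC 0.48 ± 0.11, adjusted p = 0.00731). In RNA2 they were 23.2, 25.1 and 16.98 against 33.3, 35.6 and 32.4 (log2FC 0.63 ± 0.16, adjusted p = 0.0484). The lines did not overlap in either experiment. In RNA3 the values of 31.2, 29.8 and 23.9 against 36.6, 36.0 and 28.6 overlapped (log2FC 0.25 ± 0.16, adjusted p = 0.4998). In RNA2 the call of GRIN1 was lost when any of 5 of the 6 libraries was left out, the exception being ABCC1 replicate 3, when every library had to reach 10 counts and with the background as a covariate. Its log2FC stayed between 0.49 and 0.77 under all 13 alternatives. In RNA1 the call was lost with the covariate, and the log2FC of GRIN1 lay between 0.32 and 0.58 over all 13 alternatives. There the last ABCC1 library, at 22.6 CPM, set the upper end. GRIN2D was not called, with log2FC of -0.14 ± 0.13 in RNA1, and GRIN3A was not called either (0.53 ± 0.33). GRIN2A, GRIN2B, GRIN2C and GRIN3B had at most 12 counts in any RNA1 library and were not tested there.

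The delta receptors sit at synapses but are not opened by glutamate in the usual way. GRID1 was lower in RNA1. It stood at 16.1, 19.1 and 15.3 CPM against 11.3, 10.0 and 11.7 (log2FC -0.60 ± 0.09, adjusted p = 0.000545). All 3 ABCC1 libraries lay below the Puro libraries. The call was lost with the background as a covariate (log2FC -0.28, adjusted p = 0.334) and with the spread shared over the 18 libraries (log2FC -0.50, adjusted p = 0.0557). In RNA2 and RNA3 the log2FC of GRID1 was -0.16 ± 0.18 and -0.44 ± 0.17, not called.

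Of the metabotropic glutamate receptors, GRM8, GRM4 and GRM3 were lower in RNA1, and GRM2 (log2FC -0.21 ± 0.14) and GRM6 (0.16 ± 0.18) were tested and not called. These receptors couple to the G protein that lowers cyclic AMP. GRM8 had 190, 99 and 120 counts in the Puro libraries against 44, 31 and 31 (log2FC -2.44 ± 0.18, adjusted p = 3.35e-06), and GRM4 changed by a log2FC of -0.80 ± 0.12 (adjusted p = 0.000569), a call lost with the background as a covariate, where its log2FC was -0.81. GRM3 went from 36, 26 and 30 counts to 6, 0 and 2, so nearly nothing remained in the ABCC1 libraries (log2FC -3.98 ± 0.43, adjusted p = 5.18e-05); it passed the filter on low counts through the Puro cells, and the size of the fold is poorly known. In RNA2 and RNA3 edgeR called none of the 8 metabotropic receptors, with 3 and 5 at an unadjusted p under 0.05. The log2FC of GRM8 there was -1.20 ± 0.44 and -0.73 ± 0.25, and that of GRM3 -1.15 ± 0.57 and -0.72 ± 0.32. GRM8 and GRM3 lay below the olfactory receptor limit in both lines of RNA2 and RNA3. The olfactory receptor genes tested there had a median log2FC of -0.93 and -0.32.

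Several GABA-A subunits were lower in RNA1. GABRA4 fell in RNA1 from 26.4, 27.4 and 25.1 CPM to 15.8, 16.1 and 15.7 (log2FC -0.73 ± 0.06, adjusted p = 5.59e-06), whereas its log2FC was -0.05 ± 0.22 in RNA2 and -0.04 ± 0.19 in RNA3. GABRG3 (gamma-3), GABRB1 (beta-1) and GABRP (pi) were also lower in RNA1, with log2FC of -0.94 ± 0.20, -1.02 ± 0.26 and -2.19 ± 0.33. GABRP passed the filter on low counts through the Puro cells only, so for it a difference was built in. All 3 calls were lost with the background as a covariate, those of GABRG3 and GABRB1 also with the spread shared over the 18 libraries, and that of GABRB1 with DESeq2 as well. Over all alternatives the log2FC stayed between -1.22 and -0.78 for GABRG3, between -1.38 and -0.89 for GABRB1 and between -2.35 and -1.91 for GABRP. GABRA5 (log2FC -0.16 ± 0.13) and GABRR2 (-0.23 ± 0.19) were not called. GABRA4 and GABRB1 lie side by side on chromosome 4 on opposite strands and share 204 exon bases on GRCh37; read pairs there were counted without regard to strand, so a part of the low GABRB1 count may be lost to or gained from GABRA4.

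GABRG1 (gamma-1) was the only member called in RNA3 and is named because of that call, after its values were seen. It had 65, 42 and 55 counts in the Puro libraries and 29, 12 and 38 in the ABCC1 libraries of RNA3 (log2FC -1.21 ± 0.35, adjusted p = 0.0375). The lines did not overlap, but its level of 0.753 CPM per kilobase in the Puro cells was below the pooled olfactory receptor level of 1.57. DESeq2 gave it no adjusted p, and edgeR called 0 of 46 members in RNA3 when Puro replicate 1, Puro replicate 3 or ABCC1 replicate 2 was left out, with 4, 4 and 7 at an unadjusted p under 0.05 and calls over all genes of 1.22%, 1.04% and 1.03%. The log2FC of GABRG1 was then -1.07, -1.10 and -0.86. In RNA2 its log2FC was 0.71 ± 0.61, and in RNA1 it had too few counts to test.

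GABA-B receptors need both subunits, GABBR1 to bind GABA and GABBR2 to reach the surface and couple to the G protein. GABBR1 did not pass the test in any experiment (log2FC -0.07 ± 0.09, -0.15 ± 0.17 and -0.23 ± 0.17). GABBR2 had 97, 71 and 76 counts in the Puro libraries of RNA1 against 54, 32 and 50 in the ABCC1 libraries, or 2.23, 2.61 and 2.41 CPM against 0.954, 0.991 and 0.861 (log2FC -1.37 ± 0.15, adjusted p = 4.46e-05). Its log2FC was -0.83 ± 0.42 in RNA2 and -0.51 ± 0.18 in RNA3, neither called. In both lines of RNA2 and RNA3 GABBR2 lay below the olfactory receptor limit.

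**Figure D4:**
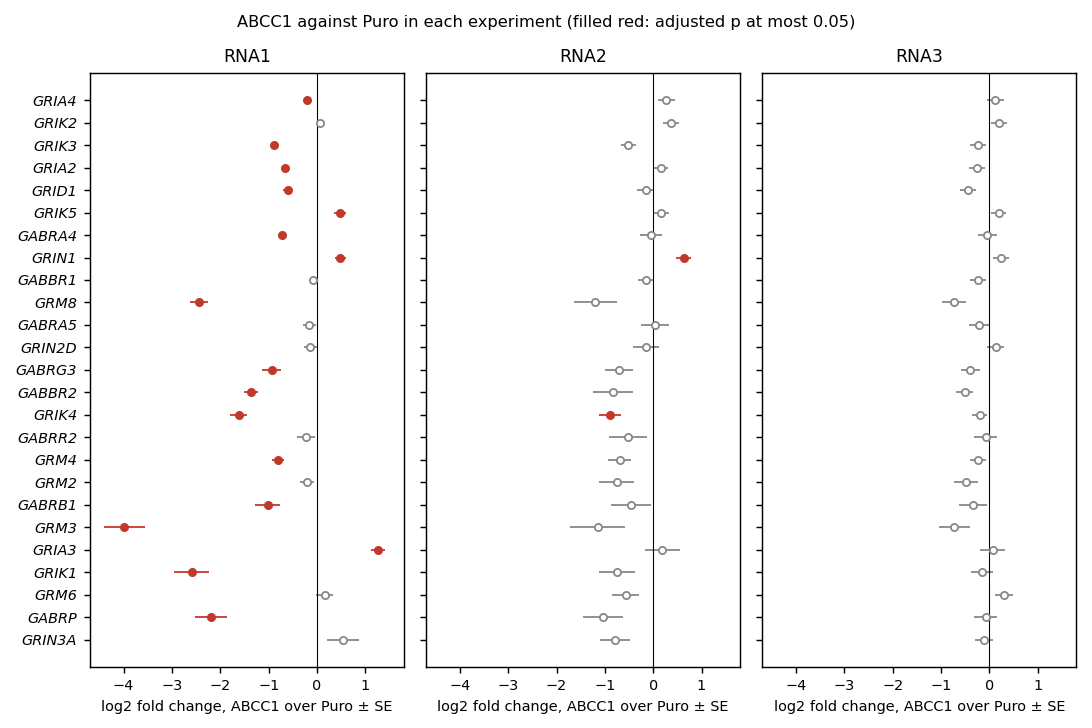
Log2 fold change of ABCC1 over Puro with its SE for 25 of the 28 members tested in RNA1, in order of their RNA1 Puro level, in each of the 3 experiments, filled red where the adjusted p is at most 0.05. In RNA1 14 of the members shown lie to the left and 3 to the right among the filled points, while RNA2 has 2 filled points, GRIN1 and GRIK4, and RNA3 has none among those shown.

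In RNA2 all 46 members were tested and 2 were called, GRIN1 higher and GRIK4 lower, beside 1.7% of all genes (1.25% higher and 0.458% lower). In RNA3 1 of 46 was called, GABRG1, beside 2.8% of all genes (2.03% higher and 0.767% lower). At an unadjusted p under 0.05 the counts were 18 and 12, beside 7243 of 34091 and 5551 of 36509 genes in all. The median log2FC of the members was -0.72 in RNA2 and -0.23 in RNA3, and that of the olfactory receptor genes tested in the same fits was -0.93 and -0.32 over 174 and 256 genes. The median of all genes was -0.19 and -0.09. The olfactory receptor genes, taken here as silent, had medians further below 0 than the members. The part of stray reads in the members' values was not tested. With each library's olfactory receptor level as a covariate, 10 members were called in RNA1, 1 higher and 9 lower, and edgeR called 0 in RNA2 and 0 in RNA3, with 7 and 2 at an unadjusted p under 0.05. Under that setting the calls over all genes came to 6.67%, 0.0287% and 0.368%. The covariate separated the lines without overlap in each experiment. A call lost with it thus cannot tell stray reads from the difference between lines. Without ABCC1 replicate 1 of RNA2, the library that stood apart, edgeR called 0 of 46 members there, with 14 at an unadjusted p under 0.05. Other settings called more in RNA2. With the spread shared over the 18 libraries 13 members were called, 1 higher and 12 lower, beside 10.7% of all genes. With a replicate block 5 were called, 1 higher and 4 lower, beside 2.56% of all genes. The SE of the members ran from 0.15 to 0.75 in RNA2 and from 0.16 to 0.37 in RNA3, against 0.04 to 0.43 in RNA1. With errors of this size, a member without a call in RNA2 or RNA3 is not shown to be unchanged.

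**Figure D5:**
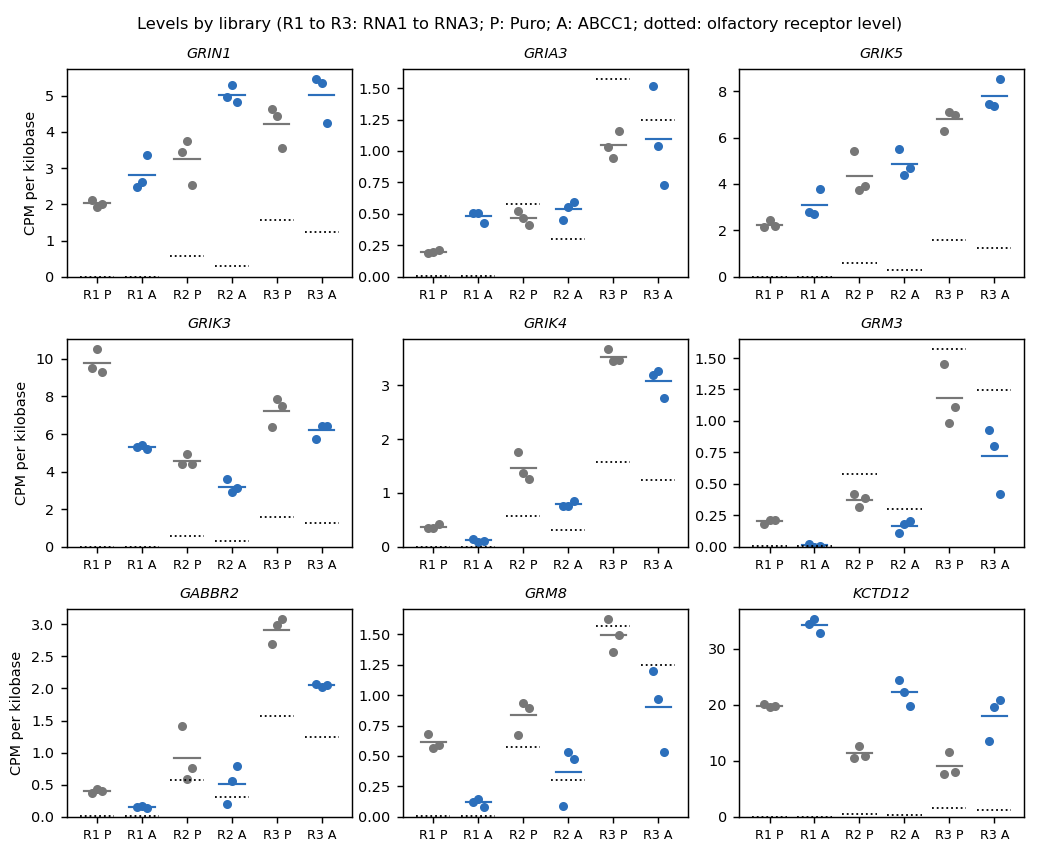
CPM per kilobase of exon in each of the 18 libraries (points; bars are group means) for 8 receptor genes and KCTD12, Puro in grey and ABCC1 in blue, with the pooled olfactory receptor level of each group as a dotted line and axes from 0. GRIN1 and KCTD12 stand above the dotted line in each experiment, and the lines overlap for GRIN1 in RNA3, while GRM3 and GRIA3 lie below it in the Puro cells of RNA2 and RNA3.

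Over the 18 libraries together, the mean of the 3 effects was tested as well. This test called 20 of 46 members, 5 higher and 15 lower, beside 12.9% of all genes (9.38% higher and 3.55% lower). The higher genes included GRIN1 (log2FC 0.52 ± 0.09, adjusted p = 2.91e-05), GRIA3 (0.57 ± 0.15), GRIK5 (0.34 ± 0.09) and GRIK2 (0.28 ± 0.09, adjusted p = 0.0251). Of the lower genes, GRIK4 had the smallest adjusted p (log2FC -0.84 ± 0.11, adjusted p = 1.21e-07), and GRM8 (-1.39 ± 0.19), GRM3 (-1.89 ± 0.28), GRIK1 (-1.10 ± 0.19) and GRIK3 (-0.48 ± 0.09) were lower as well. GABRP, GABBR2, GRM4, GABRG3 and GRID1 were lower by log2FC from -1.03 to -0.33. GABRR3, GABRB2 and GRIN2A were also called and had at most 15 counts in any RNA1 library and lay below the olfactory receptor limit in RNA2 and RNA3. GRIA3, GRM8, GRM3, GRIK1, GABRP, GABBR2 and GRM4 lay below that limit as well in both lines of RNA2 and RNA3. In the Puro cells of RNA1, GABRR3 (0.0613 CPM per kilobase) and GRIN2A (0.0217) were above the limit there. GABRB2 had 5, 4 and 4 counts in the Puro libraries of RNA1 and 0 in all 3 ABCC1 libraries. The median log2FC of the members was -0.40, that of 332 olfactory receptor genes -0.43 with 1 called, and that of all genes -0.08.

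The same fit tested whether the effect differed between the experiments and called 6 of 46 members, beside 1.19% of all genes, among them GRIK4, GRIK1, GRM3 and GABRP. For these 4 the log2FC was most negative in RNA1, and GRIK1, GRM3 and GABRP passed the filter there through the Puro cells. Library kit, instrument, depth and stray reads differ between RNA1 and the later experiments and cannot be told apart from the cells used.

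The genes that supply, clear or anchor these receptors were followed in 6 lists of 70 genes together. In RNA1 50 could be tested and 23 were called, 11 higher and 12 lower, a share of 46% beside the 37.6% of all genes, with a median log2FC of 0.03. The mean of the 3 effects was called for 15 of 70, 13 higher and 2 lower, beside 12.9% of all genes. In RNA2 2 of 70 (2.86%) and in RNA3 1 of 70 (1.43%) were called, beside 1.7% and 2.8% of all genes. The cells held little RNA to make or package the transmitters: GAD1 and GAD2, which make GABA, and the vesicular carriers SLC17A6, SLC17A7, SLC17A8 and SLC32A1 had at most 9 counts in any Puro library of RNA1. Partners of the receptors were plentiful, led by the AMPA auxiliary subunit gene CACNG4 at 67.4 CPM per kilobase in the same cells.

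KCTD12, which encodes an auxiliary subunit of GABA-B receptors that speeds their desensitization, was called higher in all 3 experiments. Its CPM were 125, 122 and 123.2 in the Puro libraries against 215, 220 and 205 in RNA1, 65.3, 78.8 and 67.3 against 153, 139 and 124 in RNA2, and 47.5, 71.9 and 50.1 against 83.9, 122 and 130 in RNA3. Every ABCC1 library exceeded every Puro library of its experiment, with log2FC of 0.79 ± 0.04 (adjusted p = 2.54e-07), 0.97 ± 0.17 (adjusted p = 0.00716) and 0.98 ± 0.18 (adjusted p = 0.000122). The call in RNA1 was kept under all 13 alternatives. That in RNA2 was lost without Puro replicate 3, without ABCC1 replicate 2 and with the background as a covariate, and that in RNA3 with the covariate alone, with adjusted p up to 0.476 and 0.885. With the covariate the log2FC was 0.77 in RNA2 and 0.21 in RNA3. Its relative KCTD16 was lower in RNA1 (log2FC -0.56 ± 0.05, adjusted p = 8.41e-06).

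The other list genes called in RNA1 and named here moved both ways. SLC1A3, a glutamate uptake carrier best known from astrocytes, was higher (log2FC 0.77 ± 0.07), as was ALDH5A1, which completes GABA breakdown (0.23 ± 0.05). Of 17 scaffold genes of glutamate synapses all were tested, and 2 were called higher and 5 lower, a share of 41.2% beside the 37.6% of all genes (6 higher and 1 lower by the mean of the 3 effects), among them SHANK2 (0.54 ± 0.06) and HOMER2 (0.24 ± 0.05) above and DLGAP1 (-0.46 ± 0.06) and DLGAP4 (-0.44 ± 0.06) below 0. Of the GABA receptor partners, NLGN2, the neuroligin of inhibitory synapses, was higher (0.38 ± 0.08) and NSF, which also drives membrane fusion, lower (-0.18 ± 0.05). NETO2, an auxiliary subunit of kainate receptors, was lower (-0.15 ± 0.04). Of 5 glycine receptor genes, the other fast inhibitory channels, 3 could be tested. GLRB (-1.11 ± 0.09) and GLRA3 (-0.50 ± 0.13) were lower. GLRA4, named after its values were seen, had 2, 2 and 1 counts in the Puro libraries against 43, 25 and 54 in the ABCC1 libraries and passed the filter on low counts only through the latter, so a difference was built in.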

How the data were processed

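The authors made libraries from total RNA, generated reads with bcl2fastq 2.18, aligned them with STAR 2.7.3a to GRCh37 with Ensembl annotation and vector sequences added, and deposited unnormalized counts of read pairs per gene from featureCounts (Subread 2.0.0), without regard to strand. The paper names a TruSeq kit for RNA1 and a SMARTer total RNA kit for RNA2 and RNA3, whereas the labels give both for RNA1. Gene symbols came from a table of gene names (51996 of 57905 IDs matched).

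From these, each experiment was analysed separately with edgeR 4.0.16 under R 4.3.3 (filterByExpr with a minimum count of 10, TMM, robust quasi-likelihood test, two-sided, Benjamini-Hochberg over all genes), and genes were called at an adjusted p of at most 0.05. A joint fit of 6 groups gave the mean effect and its difference between experiments. DESeq2 1.42.0, RLE factors, other filters, a replicate block, background as a covariate, shared spread and left-out libraries were alternatives. Counts of pairs of libraries within a group differed by a chi-square of 1.49 to 22.7 per degree of freedom, and none was treated as a repeat of another. Scripts were tested on simulated data. Floors of 3 counts cover counting error only, since PCR copies were not told apart.

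Named were the 12 highest members in RNA1 Puro cells, up to 25 called members by smallest adjusted p, and up to 4 genes called in RNA1 per pathway list. Some genes that this rule takes are not reported here. The members, lists and tests were chosen with earlier results of these data known.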

Additional observations from a re-analysis of the deposited data

Results flagged for a closer look

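The effect of ABCC1 differed between the experiments for 4 receptor genes given here, by the test of that difference in the joint edgeR quasi-likelihood fit. The adjusted p of the difference was 0.00598 for GRIK4, 0.00803 for GRIK1, 0.0118 for GRM3 and 0.0490 for GABRP. GRIK4 passed under all 22 settings tried, GRIK1 and GRM3 under 19 of 21 each and GABRP under 4 of 21. RNA3 against RNA1 gave a difference in log2FC of 1.40 ± 0.28 for GRIK4, 2.39 ± 0.49 for GRIK1, 3.24 ± 0.70 for GRM3 and 2.08 ± 0.51 for GABRP, all past the threshold. RNA2 against RNA1 gave 0.65 ± 0.28 (adjusted p = 0.503), 1.75 ± 0.49 (0.0687), 2.75 ± 0.72 (0.0348) and 1.05 ± 0.52 (0.617) for the same genes, and RNA3 against RNA2 passed for none of the 4, with adjusted p from 0.452 to 0.877. The pooled olfactory receptor level, 0.00510 CPM per kilobase in the Puro cells of RNA1 and 1.57 in those of RNA3, moved with this difference, and its part was not tested.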

How the results depend on the processing

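In the fits of single experiments, no member given here with a log2FC changed direction past the threshold under any of the alternatives run. In RNA1, GRIK3, GRIA2, GABRA4, GRM8, GRIK4, GABBR2 and GRIA3 were called under all 13 alternatives. GRM3, GRIK1 and GABRP passed the filter through the Puro cells, and the alternative that required 10 counts in every library could not test them. GRM3 and GRIK1 were called under the 12 others. GABRP was called under 11 of 12 and lost with the background as a covariate. With the background as a covariate 10 receptor genes were called in RNA1 in place of 20, and 0 in RNA2 and RNA3. The pathway genes called were 7 in RNA1 in place of 23, and 0 in RNA2 and RNA3. This covariate separates the lines, so these losses were partly built in. With the spread shared over 18 libraries the receptor calls were 13 in RNA2 and 0 in RNA3, and the pathway calls 6 in RNA1 and 14 in RNA2, beside 3.31%, 10.7% and 3.07% of all genes in RNA1, RNA2 and RNA3. In RNA2 the 2 receptor calls became 4 with DESeq2, 1 with RLE factors, 4 without a filter and 4 when each library needed 10 counts, beside 13.2%, 3.19%, 2.58% and 3.55% of all genes, and the 2 pathway calls became 5 with DESeq2. RLE factors moved the median of all genes in RNA2 from -0.19 to -0.08. The replicate block called 5 receptor genes in RNA2 and 3 in RNA3, and 3 pathway genes in RNA3, beside 2.56% and 4.52% of all genes; same-numbered libraries correlated between -0.185 and 0.119 across the lines, so the numbers were not taken as pairs. Leaving out each library gave 0 to 4 receptor and 0 to 6 pathway calls in RNA2, and 0 to 3 and 1 to 4 in RNA3, beside 0.0133% to 3.72% and 1.01% to 7.07% of all genes. The genes whose effect differed between experiments numbered 10 with DESeq2, 3 of 23 tested under the filter of at least 10 counts per library, and 2 to 8 with each library left out, beside 3.53%, 2.46% and 0.692% to 2.31% of all genes, an alternative chosen after seeing the data. Measured against the highest olfactory receptor gene, 17, 8 and 4 members were above background in the Puro cells of RNA1, RNA2 and RNA3, and 5 in RNA3 against 3 times the pooled level. The causes were not tested. Low counts kept 18 of 46 members out of the test in RNA1.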
